A study of Mus musculus with 28 samples.

Results

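The tumors of mice given immune checkpoint blockade alone were compared with the tumors of mice given 5-fluorouracil alone. The labels name 5 tumors as ICB and 5 as 5-FU, which makes 10 of the 28 tumors of the series. All were AB1-HA tumors, grown under the skin of the flank from a mouse mesothelioma line that carries the influenza hemagglutinin antigen, in female BALB/c.AusBP mice 8 to 10 weeks old, with 1 tumor per mouse, so that replicates are individual mice. ICB mice received 100 µg each of an antibody against CTLA-4 and of one against PD-L1 in the abdominal cavity, followed by 2 more doses of the PD-L1 antibody 2 days apart. 5-FU mice received 75 mg/kg into the tail vein. Treatment began at a tumor area of 20 to 25 mm², and every tumor was taken 7 days later. The tumors of 4 PBS mice serve as background. The comparison asks which genes separate the 2 single treatments and which do not differ between them, in RNA of whole tumors, where fewer cells of a type and less RNA per cell cannot be told apart.

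ICB takes away inhibitory signals from T cells. CTLA-4 competes with CD28 for its ligands during priming, and PD-L1 on tumor and myeloid cells engages PD-1 on T cells that have met their antigen. Activated CD8+ T cells kill through perforin and granzymes and release IFNγ, which induces the transcription factor IRF1 in neighbouring cells. 5-FU is a pyrimidine analog whose products inhibit thymidylate synthase and enter RNA and DNA, so that dividing cells are hit first.

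Gene counts summed to between 27848526 and 33950805 per ICB tumor and between 23541733 and 32424724 per 5-FU tumor. The mitochondrial share of the counts was 2.69% to 4.82% in the ICB tumors and 2.72% to 6.80% in the 5-FU tumors. It was 2.33% to 16.1% in the tumors given both treatments, which also enter the fitted model and were not left out singly. Pearson's r of log2 CPM over the genes was 0.919 to 0.982 for pairs of ICB tumors, 0.934 to 0.985 for pairs of 5-FU tumors and 0.914 to 0.969 for pairs of 1 of each. CPM are counts relative to the TMM-scaled library size, and 3 counts, taken as the floor, were 0.0806 to 0.133 CPM. Of 13 mesothelial and tumor identity genes, 8 passed the filter on low counts. Msln, which encodes mesothelin, averaged 108 CPM in ICB and 106 CPM in 5-FU tumors, and Wt1 averaged 0.935 and 0.734 CPM, while Vim, encoding vimentin, had 2800.2 to 4026 and 3552 to 5258 CPM. None of the 8 was called by edgeR's quasi-likelihood test, by DESeq2 or by limma-voom, with 0 at an unadjusted p under 0.05. Some tumors stood apart in host tissue. The mean log2 CPM of 15 skeletal muscle genes was 0.17, 4.30, 7.62, -2.33 and 1.80 in ICB tumors 1 to 5 and 6.19, -0.50, 6.74, 5.87 and 6.42 in 5-FU tumors 1 to 5, and that of 10 adipocyte genes was 1.31, 3.19, 4.91, -0.26 and 0.01 and 4.49, 1.50, 4.56, 4.41 and 5.53. ICB 1, ICB 4 and 5-FU 2 were lowest in muscle, and ICB 4, ICB 5 and ICB 1 in adipocyte genes. ICB 2 held most of the skin epithelium signal. Krt14 had 0, 247, 5.51, 0 and 0.0366 CPM in the ICB tumors. The part of these tissues in the differences below was not tested.

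Of the 17916 genes that passed the filter, 1535 (8.57%) were differentially expressed (DEGs), with a Benjamini-Hochberg adjusted p-value under 0.05 in edgeR's quasi-likelihood test and an absolute log2 fold change over 0.5. All log2 fold changes are given as ICB minus 5-FU, so that a positive value is a gene with more RNA in ICB tumors. There were 1027 DEGs higher in ICB (5.73% of the genes) and 508 higher in 5-FU (2.84%), and 214 DEGs had an absolute log2 fold change over 2, of which 149 were higher in ICB. The 5 values of each group did not overlap for 2247 genes (12.5%, with 7.33% higher in ICB and 5.21% higher in 5-FU), of which 1123 were DEGs. To ask which genes do not differ, the 95% interval of each log2 fold change was used, since a p-value over the threshold does not show that levels are alike. For 9181 genes (51.2%) the whole interval lay between -1 and 1, which bounds the difference to less than 2-fold either way, and for 3094 (17.3%) between -0.5 and 0.5. Unlike the adjusted p-values, these intervals are per gene and not adjusted for the number of genes, so some of them can miss the true difference. Among the bounded genes were 215 DEGs with small changes, and 7415 genes (41.4%) were neither called nor bounded. An unadjusted p under 0.05 was found for 4589 genes (25.6%), the share against which such counts in the lists below are to be read. Counts of calls in the lists are likewise to be read against the 5.73% of genes higher in ICB and the 2.84% higher in 5-FU.

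**Figure D1:**
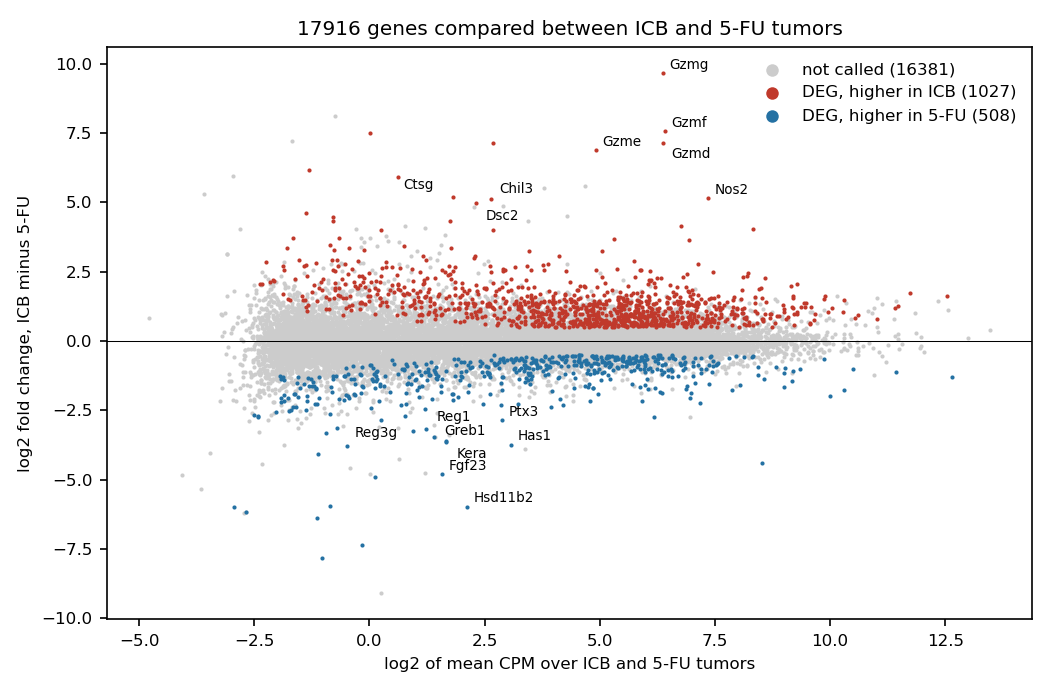
Each point is 1 of the 17916 genes. The horizontal axis gives the log2 of its mean CPM over the 10 ICB and 5-FU tumors and the vertical axis the log2 fold change, ICB minus 5-FU. Red marks the 1027 DEGs higher in ICB, blue the 508 higher in 5-FU, and the named genes are the 8 per direction that changed most among DEGs averaging 50 counts or more whose groups did not overlap.

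The number of DEGs depended on which tumors entered. It was 2263 without 5-FU 3, and 819 without ICB 2, 916 without ICB 5, 808 without 5-FU 1, 962 without 5-FU 2 and 726 without 5-FU 4. 5-FU 3 was the 5-FU tumor nearest to the ICB tumors in leukocyte genes. Ptprc, which encodes the leukocyte antigen CD45, had 316, 432, 435, 242 and 389 CPM in the ICB tumors and 135, 140.0, 329, 93.5 and 268 CPM in the 5-FU tumors, against 68.3 to 109 CPM in PBS tumors. The groups overlapped through 5-FU 3 and 5-FU 5, and Ptprc was not called (log2 fold change 0.91 ± 0.39 (SE), adjusted p = 0.154). With the log2 CPM of Ptprc as a covariate, an alternative added after the data were seen, 1338 genes were DEGs, of which 43.8% were higher in ICB in place of 66.9%, and 695 of the 1535 DEGs (45.3%) were called again. Counts under that covariate are given beside the immune lists.

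The 8 DEGs with the largest change in each direction are described first, taken only from those that averaged 50 counts or more and whose groups did not overlap. Gzmg, one of a cluster of granzyme genes on chromosome 14 (Gzmg at chr14:56156582-56159579, GRCm38) that encode serine proteases of killer cell granules, had 122, 339, 39.1, 108 and 224 CPM in ICB and 0.322, 0.106, 0.133, 0.380 and 0 CPM in 5-FU tumors (log2 fold change 9.67 ± 1.35 (SE), adjusted p = 0.000532). Gzmf had 119, 332, 56.2, 111 and 232 CPM against 0.483, 1.48, 1.24, 0.439 and 0.862 CPM (log2 fold change 7.58 ± 0.93 (SE), adjusted p = 0.000180), and Gzmd (7.13) and Gzme (6.88) behaved alike. The lowest ICB tumor was ICB 3 for each of these 4 genes, and it stood far above every 5-FU tumor. PBS tumors had 0.411, 13.1, 2.96 and 0.347 CPM of Gzmg, all below the ICB tumors, and PBS 4 lay within the range of the 5-FU tumors. Against PBS, Gzmg was higher in ICB by a log2 fold change of 5.30 (adjusted p = 0.00230) and lower in 5-FU, at -4.37 (adjusted p = 0.0174). The 4 genes are near-identical copies, so the way reads were shared among them is uncertain.

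The other 4 of these genes higher in ICB were Ctsg, Nos2, Chil3 and Dsc2. Ctsg, a protease of neutrophil granules that lies next to the granzymes at chr14:56099881-56102574, had 3.19, 19.4, 1.55, 2.22 and 7.98 CPM in ICB and 0.0806, 0.0353, 0.266, 0.0292 and 0.539 CPM in 5-FU tumors (log2 fold change 5.19 ± 0.91 (SE), adjusted p = 0.00260). Chil3, a chitinase-like protein of monocytes and macrophages, had 13.3, 35.0, 3.11, 3.09 and 5.82 CPM against 0.161, 0.141, 0.754, 0.175 and 0.539 CPM (log2 fold change 5.11 ± 0.80 (SE), adjusted p = 0.00102). Nos2, inducible nitric oxide synthase, had 167, 460.3, 229.8, 272 and 464 CPM against 6.45, 7.40, 19.6, 2.19 and 8.69 CPM (log2 fold change 5.17 ± 0.60 (SE), adjusted p = 0.000157). The 5-FU tumors had at most 0.539 CPM of Ctsg and 0.754 CPM of Chil3, and the highest of them in Nos2 and Chil3 was 5-FU 3. Dsc2, which encodes the adhesion protein desmocollin 2, had 6.61, 19.7, 2.95, 4.17 and 14.4 CPM against 0.0806, 0.282, 0.443, 0.205 and 0.539 CPM (log2 fold change 4.96 ± 1.00 (SE), adjusted p = 0.00599). These 4 genes and the 4 granzymes kept their calls in each of the 10 fits that left out 1 tumor.

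Hsd11b2, which inactivates glucocorticoids, came first of the 8 genes higher in 5-FU, with 0.171, 0.294, 0.194, 0 and 0 CPM in ICB and 5.75, 2.54, 2.44, 18.1 and 13.9 CPM in 5-FU tumors (log2 fold change -5.97 ± 1.08 (SE), adjusted p = 0.00309). Fgf23, a hormone that regulates phosphate, had 0.308, 0.353, 0.155, 0.0900 and 0.110 CPM against 4.86, 1.52, 5.72, 5.26 and 11.4 CPM (log2 fold change -4.78 ± 0.87 (SE), adjusted p = 0.00327). Has1, hyaluronan synthase 1, had 0.788, 0.706, 2.49, 0.750 and 1.17 CPM against 3.20, 16.0, 13.4, 10.2 and 35.5 CPM (log2 fold change -3.73 ± 0.84 (SE), adjusted p = 0.0109). Of these 3 genes the groups came closest to each other in Has1. Kera, the small matrix proteoglycan keratocan, followed (log2 fold change -3.61 ± 0.76 (SE), adjusted p = 0.00751). The regenerating-family lectins Reg3g (-3.25) and Reg1 (-3.18) had 1.59 to 5.35 and 1.06 to 6.78 CPM in 5-FU against 0.0300 to 0.732 and 0.0900 to 0.853 CPM in ICB tumors. Against PBS, Fgf23 was higher in 5-FU by 4.00 (adjusted p = 0.00792) and differed by -0.79 (adjusted p = 0.490) in ICB, while Kera differed by 0.87 (adjusted p = 0.372) in 5-FU and was lower in ICB, at -2.73 (adjusted p = 0.00890). Greb1 (-3.46, adjusted p = 0.0195) lost its call without ICB 2, ICB 5 or 5-FU 5 (adjusted p from 0.0517 to 0.0604). Ptx3, an acute-phase pentraxin (-2.84, adjusted p = 0.0278), lost its call without ICB 1, ICB 2, ICB 4, ICB 5, 5-FU 2 or 5-FU 5 (adjusted p from 0.0506 to 0.105).

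**Figure D2:**
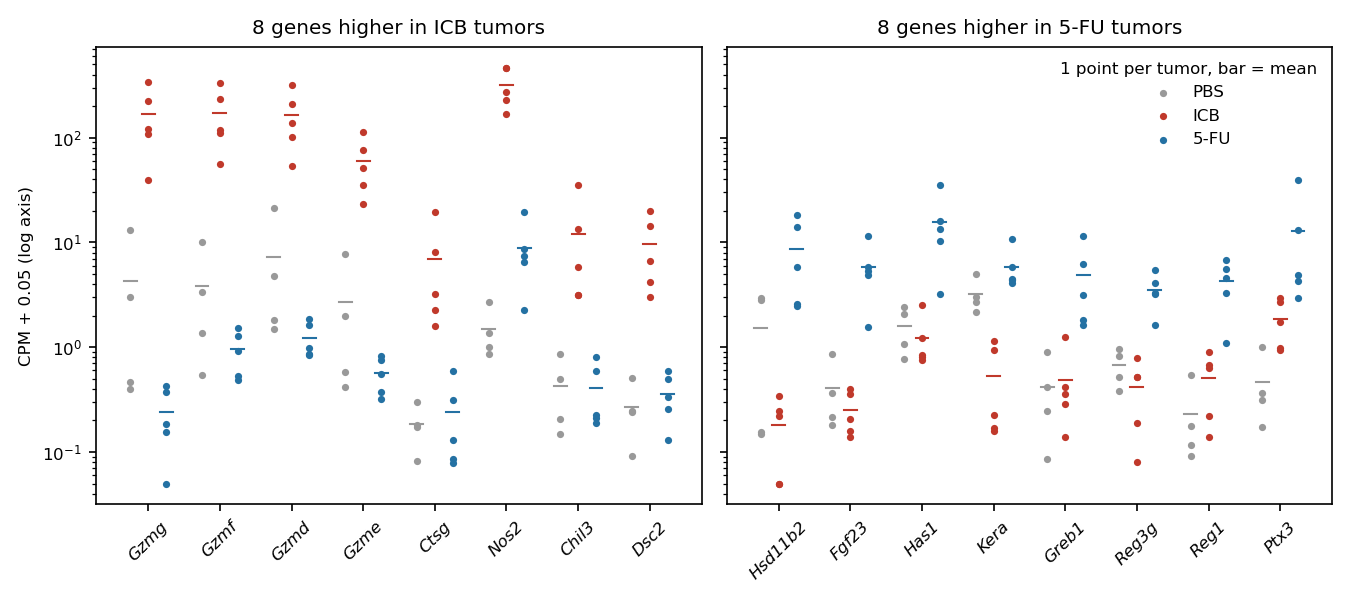
CPM plus 0.05 on a log axis for the 8 genes in each direction with the largest change among DEGs that averaged 50 counts or more and were chosen for groups that do not overlap, with 1 point per tumor and a bar at the group mean for PBS (grey), ICB (red) and 5-FU (blue). Gzmg runs from 39.1 to 339 CPM in ICB tumors against at most 0.380 CPM in 5-FU tumors.

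Enzymes of glycolysis, which breaks glucose down to pyruvate and lactate, were higher in ICB tumors at almost every step. Of 16 genes for glycolytic enzymes and glucose uptake, 13 were DEGs higher in ICB and 0 were lower, against 5.73% and 2.84% of all genes, and the median log2 fold change was 0.93, against -0.01 over all genes. The calls run from glucose uptake to lactate with the exception of the hexokinase step. They comprise the glucose transporter Slc2a1 (1.63), then Gpi1 (0.91), Pfkl (1.31), Pfkp (1.30), Aldoa (1.03), Aldoc (3.23), Tpi1 (0.60), Gapdh (0.79), Pgk1 (1.21), Pgam1 (0.92), Eno1 (0.85), Pkm (0.93) and Ldha (0.65). Pfkl, the liver-type subunit of phosphofructokinase at chr10:77986947-78010083, had 157, 208, 149, 197 and 168 CPM in ICB and 74.8, 75.2, 67.2, 64.8 and 72.3 CPM in 5-FU tumors (log2 fold change 1.31 ± 0.13 (SE), adjusted p = 4.75e-05). Aldoc, aldolase C, had 17.2, 27.9, 18.9, 14.3 and 22.0 CPM against 1.91, 1.45, 3.95, 1.37 and 2.05 CPM (log2 fold change 3.23 ± 0.37 (SE), adjusted p = 0.000157). Gapdh, often taken as a reference gene, had 2376, 2358, 2546, 3102 and 2728 CPM against 1591, 1859, 1374, 1429.7 and 1327 CPM (log2 fold change 0.79 ± 0.13 (SE), adjusted p = 0.00177). The groups were apart in every one of the 13 genes. The other 3 were not called. Hk2 missed the threshold (log2 fold change 1.01 ± 0.32 (SE), adjusted p = 0.0515), the difference of Hk1 was bounded (0.11 to 0.89), and the muscle phosphofructokinase Pfkm had a log2 fold change of -0.68 (adjusted p = 0.399), with 23.0, 32.2, 103, 25.0 and 19.9 CPM in ICB and 65.6, 27.0, 91.5, 64.6 and 76.0 CPM in 5-FU tumors, the highest ICB tumor being also the one with the most muscle RNA.

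The mean log2 CPM of the list was 8.27, 8.62, 8.55, 8.52 and 8.53 in ICB tumors, 7.46, 7.54, 7.65, 7.36 and 7.49 in 5-FU tumors and 7.97 to 8.13 in PBS tumors. The PBS tumors thus lay between the groups. Which of the 2 groups differed from PBS varied by gene. Pgk1, phosphoglycerate kinase, differed from PBS by -0.12 (adjusted p = 0.611) in ICB and by -1.33 (adjusted p = 0.000534) in 5-FU, whereas Slc2a1 differed by 1.29 (adjusted p = 0.000456) in ICB and by -0.34 (adjusted p = 0.218) in 5-FU. Pfkl was higher than PBS in ICB, at 0.42 (adjusted p = 0.0176), and lower in 5-FU, at -0.89 (adjusted p = 0.000983). Both comparisons use the same PBS tumors. The count of called genes was 12 or 13 when any 1 tumor was left out, and with Ptprc as a covariate 12 were higher in ICB and 1 in 5-FU.

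Many of the genes that the hypoxia-inducible factor HIF-1 is known to activate were also higher in ICB. HIF-1 is stable when oxygen is low and turns on glucose transport, glycolysis, pH regulation and angiogenesis. Of 23 targets, 14 were DEGs higher in ICB and 0 were lower, against 5.73% and 2.84% of all genes, 7 of the others were bounded, and the median was 0.96. Slc2a1 is in this list as well as in the one above. Car9, the surface carbonic anhydrase that is a standard hypoxia marker, had 10.9, 16.3, 11.8, 17.0 and 7.51 CPM in ICB and 2.34, 1.59, 2.57, 1.55 and 2.55 CPM in 5-FU tumors (log2 fold change 2.59 ± 0.34 (SE), adjusted p = 0.000309). Bnip3, a mitophagy receptor, had 115, 129, 89.0, 123 and 103 CPM against 27.6, 17.7, 27.8, 20.6 and 32.0 CPM (log2 fold change 2.15 ± 0.32 (SE), adjusted p = 0.000736). Pdk1, which inhibits pyruvate dehydrogenase, had 56.0, 52.1, 42.0, 64.1 and 46.1 CPM against 17.7, 14.5, 16.4, 14.1 and 19.2 CPM (log2 fold change 1.67 ± 0.19 (SE), adjusted p = 0.000157). No values overlapped, and the PBS tumors were on the ICB side, at 9.58 to 24.8 CPM for Car9, 65.6 to 207 CPM for Bnip3 and 51.1 to 93.5 CPM for Pdk1. Against PBS these 3 genes were lower in 5-FU, at -2.78 (adjusted p = 0.000361), -2.22 (adjusted p = 0.000983) and -2.02 (adjusted p = 0.000139), while ICB differed by -0.20 (adjusted p = 0.647), -0.06 (adjusted p = 0.883) and -0.35 (adjusted p = 0.156). Other called members were Ankrd37 (2.39), Slc2a3 (1.66), Pfkfb3 (1.61), Ndrg1 (1.38), Ero1l (1.24), Pfkfb4 (0.99), Egln3 (0.96), Kdm3a (0.81) and Bnip3l (0.78). Vegfa, the angiogenic growth factor, was called too (log2 fold change 1.19 ± 0.31 (SE), adjusted p = 0.0241), but not without ICB 2, 5-FU 1 or 5-FU 4 (adjusted p from 0.0609 to 0.0751). Adm (-0.52 to 0.46), Egln1 (-0.10 to 0.38) and P4ha1 (0.16 to 0.68) had 95% intervals within -1 to 1. The number of called targets was 9 without ICB 2, without 5-FU 1 or without 5-FU 4, 11 to 15 without another tumor, and 11 with Ptprc as a covariate.

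The windows of 250 bases upstream of the annotated starts are shown, as examples, for 4 of the called genes of these lists that hold the core letters of the HIF site, ACGTG, searched on both strands. They come from RefSeq for GRCm38.p6, run 5′ to 3′ on the strand of the gene, and have the matches in capitals, read as CACGT where the match is on the other strand. The letters stood in the windows of 16.6% of 27025 genes, of 6 of the 16 glycolytic genes and of 10 of the 18 HIF-1 targets with a window, 6 of these 10 being DEGs. A match is a description of the letters and not a measured binding site.
Slc2a1 (chr4:119108495-119108744, plus strand): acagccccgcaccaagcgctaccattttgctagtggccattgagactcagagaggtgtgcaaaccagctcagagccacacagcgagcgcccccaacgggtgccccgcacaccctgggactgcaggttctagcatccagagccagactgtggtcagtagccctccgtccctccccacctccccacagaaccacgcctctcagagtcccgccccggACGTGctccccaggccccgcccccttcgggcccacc
Car9 (chr4:43506776-43507025, plus strand): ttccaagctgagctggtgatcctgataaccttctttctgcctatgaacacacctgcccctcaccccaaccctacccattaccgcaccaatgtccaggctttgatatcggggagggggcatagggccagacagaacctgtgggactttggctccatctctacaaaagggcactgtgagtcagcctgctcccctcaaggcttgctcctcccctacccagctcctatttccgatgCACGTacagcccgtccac
Bnip3 (chr7:138909507-138909756, minus strand): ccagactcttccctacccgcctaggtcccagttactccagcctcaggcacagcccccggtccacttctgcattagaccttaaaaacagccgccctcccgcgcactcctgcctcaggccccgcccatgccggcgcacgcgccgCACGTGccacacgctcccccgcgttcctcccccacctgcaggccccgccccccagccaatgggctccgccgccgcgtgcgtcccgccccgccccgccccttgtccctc
Pgk1 (chrX:106186850-106187099, plus strand): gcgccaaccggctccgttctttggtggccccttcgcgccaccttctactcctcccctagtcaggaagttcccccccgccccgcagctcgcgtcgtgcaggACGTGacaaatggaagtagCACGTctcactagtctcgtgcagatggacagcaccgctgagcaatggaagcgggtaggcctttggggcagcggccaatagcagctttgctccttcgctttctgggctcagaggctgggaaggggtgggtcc
The first base of the match lay 36 bases before the start in Slc2a1 and 18 in Car9. In Bnip3 the 2 matches, at 108 and 107 bases, are the 2 strands of one palindrome, and in Pgk1 they lay at 150 and 131 bases.

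**Figure D3:**
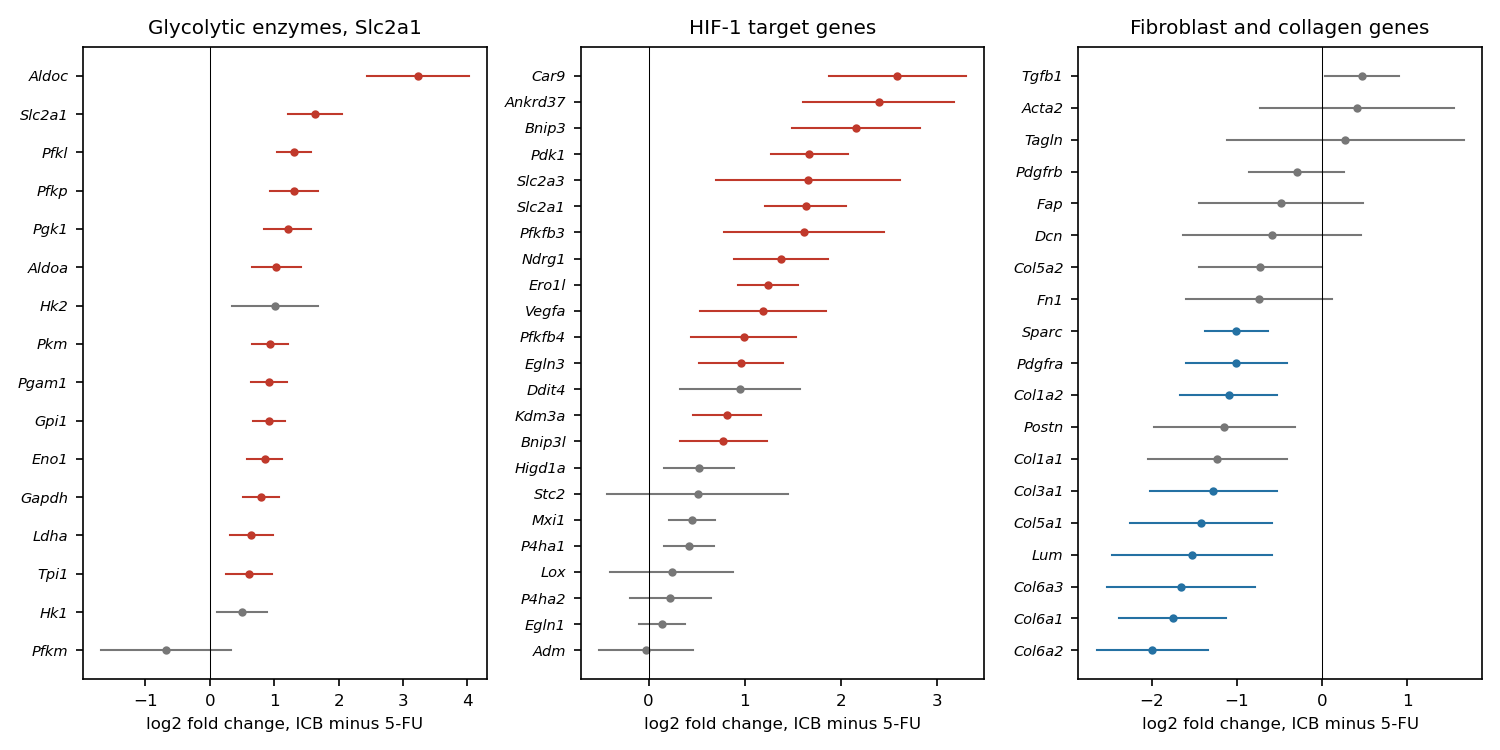
Log2 fold changes, ICB minus 5-FU, with their 95% intervals for the 16 glycolytic genes, the 23 HIF-1 targets and the 19 fibroblast and collagen genes tested. Red marks DEGs higher in ICB, blue DEGs higher in 5-FU and grey genes not called. The first 2 panels lie mostly right of 0 and the third mostly left of it.

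Genes of inflammatory and arginine-metabolizing macrophages, mostly enzymes, formed the list with the largest share of calls. Of 9 genes, 8 were DEGs higher in ICB, with a median of 2.50. Besides Nos2, they included Acod1, which makes itaconate, the arginine transporter Slc7a2, Ass1 (1.86), Cybb (2.05), Hmox1 (2.42) and Ido1 (2.50), the last being also in the IFNγ list below. Acod1 had 125, 237, 186, 170.5 and 316 CPM in ICB and 5.59, 12.7, 24.7, 1.67 and 14.0 CPM in 5-FU tumors (log2 fold change 4.15 ± 0.58 (SE), adjusted p = 0.000566). Slc7a2 had 148, 469, 125, 116 and 285 CPM against 18.7, 13.9, 32.3, 7.57 and 18.6 CPM (log2 fold change 3.65 ± 0.53 (SE), adjusted p = 0.000723). The groups were well apart, and 5-FU 4 was the lowest tumor in both. PBS tumors had 1.97, 4.02, 4.25 and 2.08 CPM of Acod1, far below the ICB tumors. Between 7 and 9 genes were called without any 1 tumor, and 8 with Ptprc as a covariate. Of 16 marker genes of macrophages themselves, 4 were called higher in ICB, against 5.73% of all genes, and the median was 0.76. They were Cd68 (1.58), Mertk (1.39), Csf1r (1.23) and Trem2 (1.38). Cd68 and Mertk were called in every fit that left out 1 tumor, but Csf1r was lost without ICB 2, ICB 3, ICB 5, 5-FU 1, 5-FU 2, 5-FU 4 or 5-FU 5 (adjusted p from 0.0633 to 0.120), and Trem2 without ICB 2, ICB 3, ICB 5, 5-FU 1, 5-FU 2, 5-FU 4 or 5-FU 5 (adjusted p from 0.0658 to 0.0960). Adgre1, the F4/80 antigen, was not called (log2 fold change 0.65 ± 0.46 (SE), adjusted p = 0.399), and the mannose receptor Mrc1 was bounded (-0.36 to 0.98). The called macrophage markers were 7 without 5-FU 3, 2 without ICB 2, ICB 3, ICB 5, 5-FU 1, 5-FU 2, 5-FU 4 or 5-FU 5, and 2 with Ptprc as a covariate, where the median was -0.02.

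Genes of osteoclasts, the multinucleated bone-resorbing cells of the macrophage lineage, were mostly higher in ICB than in 5-FU tumors. Of 13 genes, 11 were DEGs higher in ICB, against 5.73% of all genes, with a median of 2.26. Acp5, the tartrate-resistant phosphatase used to stain osteoclasts, had 254, 219, 736, 772 and 550.4 CPM in ICB, 67.6, 118, 87.1, 117 and 74.4 CPM in 5-FU and 856, 1078, 638 and 535 CPM in PBS tumors (log2 fold change 2.45 ± 0.41 (SE), adjusted p = 0.00177). Atp6v0d2, a proton pump subunit of these cells, had 52.4, 59.8, 152, 113 and 123 CPM, 12.2, 20.1, 18.7, 20.4 and 13.8 CPM and 112, 116, 97.6 and 85.5 CPM in the 3 groups (log2 fold change 2.56 ± 0.29 (SE), adjusted p = 0.000157). Ctsk, cathepsin K, the collagenase of resorption, had 282, 308, 949, 1034 and 620.3 CPM, 106, 126, 127, 168 and 138 CPM and 974, 1106, 665 and 572 CPM (log2 fold change 2.26 ± 0.48 (SE), adjusted p = 0.00794). No 5-FU tumor reached an ICB or PBS tumor in these genes, and ICB 1 and ICB 2 were the lowest of the ICB tumors. Against PBS, Acp5 differed by -0.62 (adjusted p = 0.227) in ICB and was lower in 5-FU, at -3.06 (adjusted p = 0.000615). The receptor genes Oscar (4.32) and Calcr (4.02), the fusion genes Ocstamp (2.58) and Dcstamp (1.61), and Itgb3 (1.27), Ckb (1.66) and Mmp9 (1.98) were called as well, and Nfatc1 (0.69) was not. Slc9b2 (2.54, adjusted p = 0.0273) lost its call without ICB 3, ICB 4, 5-FU 1, 5-FU 2 or 5-FU 5 (adjusted p from 0.0538 to 0.0707), and Mmp9 without ICB 3, ICB 4, ICB 5, 5-FU 1, 5-FU 2, 5-FU 4 or 5-FU 5 (adjusted p from 0.0535 to 0.0712). The receptor for the osteoclast factor RANKL, Tnfrsf11a, was bounded (-0.26 to 0.65). From 8 to 11 genes were called without any 1 tumor, and 10 with Ptprc as a covariate. The labels name no bone, and the genes are described here as a list, not as a cell type.

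Of the T cell genes, part of the effector list was called. Of 20 cytotoxic effector genes, 8 were called higher in ICB, against 5.73% of all genes, and the median was 1.40. Besides the 4 granzymes above they were Prf1 (2.28), Gzmb (2.20), Gzmc (2.52) and Ifng (2.57). Gzmb, the granzyme most used as an activation marker, had 118, 152, 97.4, 89.7 and 98.0 CPM in ICB and 22.7, 34.0, 28.3, 15.0 and 21.2 CPM in 5-FU tumors (log2 fold change 2.20 ± 0.26 (SE), adjusted p = 0.000157). Prf1, which encodes perforin, had 97.8, 174, 130.1, 87.8 and 141 CPM against 15.5, 23.1, 56.5, 10.1 and 24.7 CPM (log2 fold change 2.28 ± 0.38 (SE), adjusted p = 0.00206). Ifng had 12.5, 16.9, 14.3, 8.19 and 13.5 CPM against 1.32, 1.48, 5.19, 0.614 and 2.48 CPM (log2 fold change 2.57 ± 0.44 (SE), adjusted p = 0.00233). The groups did not overlap, and 5-FU 3 was the highest 5-FU tumor in Prf1 and Ifng but not in Gzmb. Against PBS, Gzmb was higher in ICB by 2.74 (adjusted p = 2.09e-05) and differed by 0.54 (adjusted p = 0.138) in 5-FU, while Ifng was higher in both, by 5.26 (adjusted p = 2.44e-05) and 2.69 (adjusted p = 0.00421). Gzma (log2 fold change 0.35 ± 0.40 (SE), adjusted p = 0.620) and Gzmk (log2 fold change 1.56 ± 0.86 (SE), adjusted p = 0.267) were not called, and the natural killer receptor Ncr1 was bounded (-0.98 to 0.60). The effector list had 13 calls without 5-FU 3 and 8 without any other. With Ptprc as a covariate it had 8 in ICB and 1 in 5-FU, and its median was 0.21.

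Of 16 genes of CD8+ T cells and the T cell receptor complex, 0 were DEGs by edgeR's quasi-likelihood test, although all 16 log2 fold changes were positive and 5 had an unadjusted p under 0.05, against 25.6% of all genes. DESeq2 and limma-voom called 1 each. The median was 1.08, and 0 were bounded, so that neither a difference nor its absence was shown. Cd8a had 85.9, 91.1, 182, 63.2 and 125 CPM in ICB and 9.45, 20.6, 76.3, 5.17 and 26.2 CPM in 5-FU tumors (log2 fold change 1.99 ± 0.68 (SE), adjusted p = 0.0719), and its groups overlapped through 5-FU 3. Without 5-FU 3, 6 of the 16 were called. Cd4 had 22.0, 45.8, 71.2, 12.5 and 37.7 CPM against 20.8, 12.4, 105, 10.8 and 37.6 CPM and a log2 fold change of 0.02 with an interval of -1.37 to 1.41. Both groups were above PBS in Cd8a, by 4.42 (adjusted p = 0.00101) in ICB and 2.43 (adjusted p = 0.0288) in 5-FU. With Ptprc as a covariate 3 of the 16 were higher in 5-FU, and the median was -0.22. Of 8 genes of regulatory T cells 0 were called, with 2 at an unadjusted p under 0.05, and with 0 by DESeq2 and limma-voom, while 1 was called without 5-FU 3, and 1 was higher in 5-FU with Ptprc as a covariate. Foxp3, their transcription factor, had 6.13, 16.3, 10.5, 5.43 and 10.0 CPM in ICB and 11.6, 7.09, 24.3, 7.69 and 18.8 CPM in 5-FU tumors (log2 fold change -0.52 ± 0.42 (SE), adjusted p = 0.472).

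Of 17 checkpoint and costimulation genes, 5 were called higher in ICB, against 5.73% of all genes. These were Pdcd1lg2 (2.89), Tnfrsf9 (2.09), Cd274 (1.95), Havcr2 (1.43) and Entpd1 (1.21). Cd274 encodes PD-L1, the target of one of the antibodies given, and had 163, 261, 151, 157 and 201 CPM in ICB, 32.8, 51.4, 79.6, 16.5 and 61.7 CPM in 5-FU and 9.94, 12.4, 12.3 and 12.1 CPM in PBS tumors (log2 fold change 1.95 ± 0.30 (SE), adjusted p = 0.000877). Every tumor of both treatments exceeded every PBS tumor, and every ICB tumor exceeded every 5-FU tumor. Entpd1 lost its call without ICB 1, ICB 2, ICB 3, ICB 5, 5-FU 1, 5-FU 2, 5-FU 4 or 5-FU 5 (adjusted p from 0.0508 to 0.107). Pdcd1, which encodes PD-1, had an adjusted p of 0.196 at a log2 fold change of 1.62, and Ctla4, the target of the other antibody, 0.642 at -0.43. With Ptprc as a covariate 4 genes were higher in ICB and 5 in 5-FU.

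The response to IFNγ was higher in ICB in most of its genes. Of 22 IFNγ response genes, 18 were DEGs higher in ICB, 22 had positive log2 fold changes and the median was 1.12. Irf1, an early transcription factor of the response, had 546, 717, 421, 644 and 491 CPM in ICB and 177, 228, 302, 129 and 235 CPM in 5-FU tumors (log2 fold change 1.40 ± 0.22 (SE), adjusted p = 0.00110). Ciita, the master regulator of MHC class II genes, had 146, 176, 176, 91.4 and 146 CPM against 22.1, 17.9, 84.0, 10.9 and 47.2 CPM (log2 fold change 2.02 ± 0.48 (SE), adjusted p = 0.0142). Gbp5, a guanylate-binding protein against intracellular microbes, had 265, 398, 247, 262 and 272 CPM against 64.5, 74.9, 179, 34.1 and 109.8 CPM (log2 fold change 1.64 ± 0.31 (SE), adjusted p = 0.00381). Every 5-FU tumor was below every ICB tumor in these 3 genes, with 5-FU 4 the lowest and 5-FU 3 the highest of them, and ICB 4 was the lowest ICB tumor in Ciita and ICB 2 the highest in Irf1 and Gbp5. The chemokine gene Cxcl10 (1.18) was called, while Cxcl9 (log2 fold change 0.93 ± 0.49 (SE), adjusted p = 0.246) was not, its groups overlapping through 5-FU 3. Irf8 lost its call without ICB 1, ICB 2, ICB 3, ICB 5, 5-FU 1, 5-FU 2, 5-FU 4 or 5-FU 5 (adjusted p from 0.0525 to 0.111), and Psmb9 without ICB 1, ICB 2, ICB 3, ICB 4, ICB 5, 5-FU 1, 5-FU 2, 5-FU 4 or 5-FU 5 (adjusted p from 0.0573 to 0.128). The list had 22 calls without 5-FU 3, 12 to 16 without another tumor, and 15 with Ptprc as a covariate. Both treatments stood above PBS, with a mean log2 CPM of 8.34 to 8.66 in ICB, 6.14 to 8.10 in 5-FU and 5.68 to 6.05 in PBS tumors.

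For the same purpose as above, the upstream windows are shown for called genes of the IFNγ list with a match to the interferon-stimulated response element (ISRE), which is GAAA, any 2 bases and GAAA, or to the γ-activated sequence (GAS), TTCNNNGAA, in which N stands for any base. Both were searched on both strands. In the windows of all 27025 genes ISRE letters occurred in 3.04% and GAS letters in 7.18%. Of the 15 list members with a window, 8 held the ISRE letters and 6 the GAS letters, and 3 of these, Gbp5, Igtp and Irgm2, held both. Capitals mark the ISRE match in the first 3 and the GAS match in Irf1.
Gbp5 (chr3:142496684-142496933, plus strand): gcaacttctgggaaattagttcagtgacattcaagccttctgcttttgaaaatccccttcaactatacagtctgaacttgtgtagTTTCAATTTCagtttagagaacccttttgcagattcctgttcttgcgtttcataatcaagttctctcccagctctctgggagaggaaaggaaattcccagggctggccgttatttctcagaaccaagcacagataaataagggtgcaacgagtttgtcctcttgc
Cxcl10 (chr5:92348890-92349139, minus strand): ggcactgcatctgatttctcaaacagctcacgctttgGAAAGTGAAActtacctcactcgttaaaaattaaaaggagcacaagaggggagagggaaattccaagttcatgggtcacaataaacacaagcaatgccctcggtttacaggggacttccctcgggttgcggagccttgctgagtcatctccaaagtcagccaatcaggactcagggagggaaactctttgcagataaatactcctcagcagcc
Irgm2 (chr11:58214727-58214976, plus strand): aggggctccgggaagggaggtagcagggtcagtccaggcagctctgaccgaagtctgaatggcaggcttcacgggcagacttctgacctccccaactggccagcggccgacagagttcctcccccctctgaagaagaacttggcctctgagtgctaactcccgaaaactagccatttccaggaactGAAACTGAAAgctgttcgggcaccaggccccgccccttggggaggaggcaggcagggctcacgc
Irf1 (chr11:53769764-53770013, plus strand): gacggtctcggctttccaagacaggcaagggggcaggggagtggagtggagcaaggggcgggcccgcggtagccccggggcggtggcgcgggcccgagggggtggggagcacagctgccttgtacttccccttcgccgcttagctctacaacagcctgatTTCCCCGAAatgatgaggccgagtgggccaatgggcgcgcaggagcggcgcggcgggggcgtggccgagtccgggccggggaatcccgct
The matches began 165 bases before the start in Gbp5, 213 in Cxcl10, 64 in Irgm2 and 90 in Irf1. The 3 genes with capitals in the ISRE differed by 1.64, 1.18 and 0.84.

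Of 20 genes of the type I interferon response, 2 were called higher in ICB, Ifit2 (0.78) and Zbp1 (0.67), against 5.73% of all genes. Of the others 12 were bounded, against 51.2% of all genes, and the median of the list was 0.18. The Ptprc covariate left 1 call. Isg15, a ubiquitin-like protein, had 36.7, 71.7, 56.5, 51.4 and 38.8 CPM in ICB and 48.5, 57.3, 45.7, 38.6 and 43.4 CPM in 5-FU tumors, and its interval ran from -0.38 to 0.63. Rsad2 (-0.50 to 0.70) and Usp18 (-0.53 to 0.60) were bounded as well. Ifit2 lost its call without ICB 2, ICB 3, ICB 4, 5-FU 1, 5-FU 2, 5-FU 4 or 5-FU 5 (adjusted p from 0.0508 to 0.0893). Antigen presentation genes act downstream of IFNγ. Of 13 class I genes, 7 were called higher in ICB, against 5.73% of all genes, at a median of 0.80 over the list. The called changes ran from 0.62 for Tap2 to 0.97 for Tap1, and all 13 had an unadjusted p under 0.05. The class I molecules themselves, H2-K1 (0.80), H2-D1 (1.01) and B2m (0.80), were not called, with 5-FU 3 inside the range of the ICB tumors for B2m, whose 5-FU values were 1358, 1651, 3582, 1144 and 2110.4 CPM against 3239, 3764, 3871, 2415 and 3817 CPM in ICB. Tap1, Psmb8 and Psmb9 are in both this list and the IFNγ list. The number of called class I genes depended on single tumors, at 13 without 5-FU 3, 1 without 5-FU 1, 2 without ICB 2 or 5-FU 4, 3 without ICB 3, ICB 5, 5-FU 2 or 5-FU 5, 4 without ICB 4, 6 without ICB 1, and 2 with Ptprc as a covariate. Of 10 class II genes only Ciita was called by edgeR's quasi-likelihood test on all tumors, at a median of 1.24, while DESeq2, limma-voom and the replicate block called 2 each. The calls were 8 without 5-FU 3, 2 without ICB 4, and 1 with Ptprc as a covariate, where the median was -0.03. H2-Aa had 3302, 4732, 5479.6, 1524 and 5204 CPM in ICB and 602, 625, 4381, 355 and 1473 CPM in 5-FU tumors (log2 fold change 1.44 ± 0.72 (SE), adjusted p = 0.217).

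**Figure D4:**
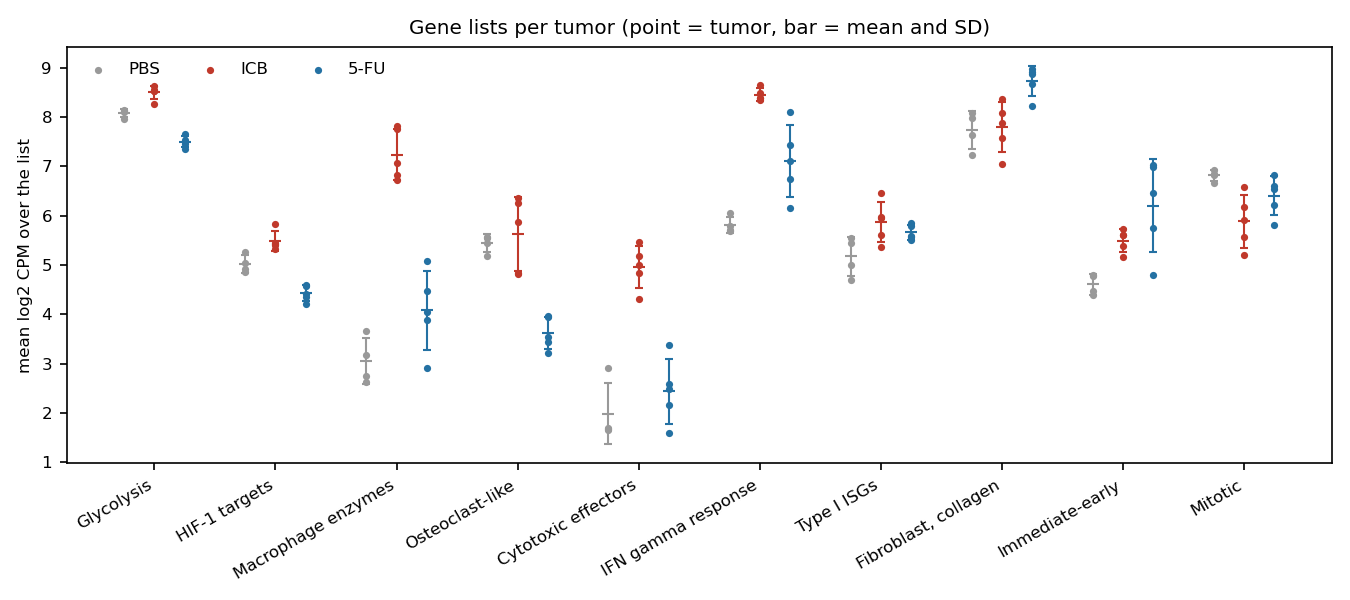
Mean log2 CPM over each of 10 gene lists, with 1 point per tumor and the group mean with its SD for PBS (grey), ICB (red) and 5-FU (blue). The ICB and 5-FU points do not overlap for glycolysis, HIF-1 targets, the macrophage enzymes, the osteoclast-like genes, the cytotoxic effectors and the IFNγ response, and they overlap for the other 4 lists.

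Of 18 neutrophil genes and ligands of the neutrophil receptor CXCR2, 13 were tested and 7 were DEGs higher in ICB, against 5.73% of all genes. They were Cxcl3, S100a9, Cxcr2, Mmp8 (2.36), S100a8 (2.11), Csf3r (1.77) and Mmp9, which is also in the osteoclast list. Cxcl3, a chemokine for neutrophils, had 7.64, 27.1, 2.56, 6.51 and 9.34 CPM in ICB and 0.618, 3.49, 2.22, 0.702 and 1.15 CPM in 5-FU tumors (log2 fold change 2.71 ± 0.67 (SE), adjusted p = 0.0180). S100a9, a calcium-binding protein abundant in neutrophils, had 4.11, 14.8, 2.64, 3.06 and 4.03 CPM against 0.215, 0.740, 1.64, 0.175 and 1.65 CPM (log2 fold change 2.71 ± 0.74 (SE), adjusted p = 0.0293). Cxcr2, the receptor, had 4.63, 13.8, 2.17, 3.96 and 3.70 CPM against 1.37, 1.09, 1.24, 0.643 and 1.62 CPM (log2 fold change 2.24 ± 0.64 (SE), adjusted p = 0.0350). ICB 2 was the highest tumor in all 3, and 5-FU 2 reached into the ICB range for Cxcl3. Of the 13 genes, 3 went the other way, 2 of them at an unadjusted p under 0.05, and DESeq2 called 1 gene of the list higher in 5-FU. Cxcl1, another ligand of CXCR2, was the lowest of these at -1.85, without a call by edgeR's quasi-likelihood test (adjusted p = 0.115). The neutrophil markers Ly6g, Camp, Ngp, Elane and Mpo did not pass the filter on low counts. The calls rested on many single tumors, with 1 left without ICB 2 or 5-FU 2, 2 without ICB 5, 4 without 5-FU 5, 0 without 5-FU 1 or 5-FU 4, 5 to 7 without another tumor, and, with Ptprc as a covariate, 2 in ICB and 1 in 5-FU. Among the fits without 1 tumor, Cxcl3 lost its call without ICB 2, 5-FU 1 or 5-FU 4 (adjusted p from 0.0538 to 0.0670), S100a9 without ICB 2, 5-FU 1, 5-FU 2 or 5-FU 4 (adjusted p from 0.0695 to 0.112), and Cxcr2 without ICB 2, ICB 5, 5-FU 1, 5-FU 2, 5-FU 4 or 5-FU 5 (adjusted p from 0.0505 to 0.131).

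The remaining leukocyte lists held 0 to 2 calls each by edgeR's quasi-likelihood test, against 5.73% of all genes called higher in ICB and 2.84% called higher in 5-FU. Among 13 dendritic cell genes, Clec9a, a receptor of cross-presenting dendritic cells for dead cells, had 11.4, 14.2, 12.6, 10.1 and 14.8 CPM in ICB and 1.67, 1.13, 4.17, 0.731 and 3.34 CPM in 5-FU tumors (log2 fold change 2.52 ± 0.45 (SE), adjusted p = 0.00278), and Irf8 was the only other call, while Xcr1, a marker of the same cells, was not called (log2 fold change 0.69 ± 0.55 (SE), adjusted p = 0.458). Among 10 genes of mast cells, eosinophils and basophils, the basophil protease Mcpt8 was called, with 0.959, 2.97, 0.427, 0.750 and 0.769 CPM against 0.107, 0, 0.0887, 0.117 and 0.108 CPM (log2 fold change 3.72 ± 0.67 (SE), adjusted p = 0.00303), the 5-FU values being at or near the floor. Of 10 monocyte genes only Chil3 was called by edgeR's quasi-likelihood test, with Ly6c2 (1.19) and Ccr2 (0.73) at adjusted p-values of 0.236 and 0.295. In this list 7 log2 fold changes were positive and 3 negative, down to -0.99, and 1 gene higher in 5-FU had an unadjusted p under 0.05. DESeq2 and the model of the 10 tumors alone each called 1 monocyte gene higher in ICB and 1 higher in 5-FU. Under the Ptprc covariate 2 dendritic cell genes were higher in ICB and 1 in 5-FU, 1 monocyte gene each way, and 1 gene of mast cells, eosinophils and basophils in ICB. Of 11 B and plasma cell genes 0 were called by edgeR's quasi-likelihood test, with 1 at an unadjusted p under 0.05 and 0 by DESeq2 and limma-voom, at a median of -0.93. The median was 0.14 without 5-FU 3, and the model of the 10 tumors alone called 2 higher in 5-FU. Cd79a, a chain of the B cell receptor complex, had 5.55, 3.35, 7.61, 5.46 and 3.08 CPM in ICB and 11.4, 10.4, 38.3, 10.8 and 17.5 CPM in 5-FU tumors (log2 fold change -1.82 ± 0.87 (SE), adjusted p = 0.199). Every 5-FU tumor exceeded every ICB tumor in Cd79a, but the wide interval, -3.64 to 0.01, left it uncalled. That interval rests on a spread estimated over all 19 tumors of the model and not on the ICB and 5-FU tumors alone. PBS tumors, at 11.4 to 15.0 CPM, lay above the ICB tumors too. With Ptprc as a covariate 7 of the 11 were higher in 5-FU.

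Fibroblast and collagen genes held the most calls higher in 5-FU, and the count varied with the tumors used. Of 19 fibroblast and collagen genes, 9 were DEGs higher in 5-FU and 0 were higher in ICB, against 2.84% and 5.73% of all genes, at a median of -1.01. The neighbouring genes Col6a2 (chr10:76595762-76623630) and Col6a1 (chr10:76708792-76726168) encode chains of the microfibrillar collagen VI. Col6a2 had 461, 461, 592, 221 and 332 CPM in ICB and 1664, 1006, 1392, 2409 and 1762 CPM in 5-FU tumors (log2 fold change -1.99 ± 0.31 (SE), adjusted p = 0.00106), and Col6a1 had 660.3, 622, 774, 357 and 487 CPM against 2000.5, 1323, 1599.6, 2824 and 2054 CPM (log2 fold change -1.76 ± 0.30 (SE), adjusted p = 0.00212). Sparc, a collagen-binding matrix protein, had 925, 856, 1351, 701 and 991 CPM against 1913, 1690.0, 1836, 2265 and 1987 CPM (log2 fold change -1.01 ± 0.17 (SE), adjusted p = 0.00237). These 3 genes had no overlap, and ICB 4 was lowest in each. Against PBS, Col6a2 was higher in 5-FU by 1.21 (adjusted p = 0.0153) and differed by -0.78 (adjusted p = 0.0558) in ICB, whereas Sparc was lower in ICB, at -1.01 (adjusted p = 0.000742), and differed by -0.00 (adjusted p = 0.990) in 5-FU. Other called members were Col6a3 (-1.66), Lum (-1.52), Col5a1 (-1.42), Col3a1 (-1.28), Col1a2 (-1.10) and Pdgfra (-1.01). Col3a1 lost its call without ICB 2, ICB 4, ICB 5, 5-FU 1, 5-FU 2, 5-FU 4 or 5-FU 5 (adjusted p from 0.0504 to 0.0823), Lum without ICB 1, ICB 2, ICB 5, 5-FU 1, 5-FU 3, 5-FU 4 or 5-FU 5 (adjusted p from 0.0604 to 0.107), and Pdgfra without ICB 1, ICB 2, ICB 4, ICB 5, 5-FU 1, 5-FU 4 or 5-FU 5 (adjusted p from 0.0534 to 0.0829). Col1a1 did not overlap between the groups but missed the threshold (log2 fold change -1.23 ± 0.39 (SE), adjusted p = 0.0535), and the contractile gene Acta2 was not called (log2 fold change 0.41 ± 0.54 (SE), adjusted p = 0.674). The calls higher in 5-FU numbered 4 without ICB 2, 5 without ICB 5, 5-FU 1 or 5-FU 5, 3 without 5-FU 4, 6 to 10 without another tumor, and 7 with Ptprc as a covariate. Without 5-FU 3, 8 were higher in 5-FU and 1 was called higher in ICB. The muscle and adipocyte scores given above were also lowest in ICB 4 among the ICB tumors, and their part in the collagen values was not tested.

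Immediate-early genes, which encode transcription factors switched on within minutes of a stimulus, gave 3 DEGs higher in 5-FU, and 4 of the 5-FU tumors stood far above the other. Fosb, a partner in the AP-1 complex at chr7:19302696-19310051, had 12.4, 9.94, 81.5, 31.1 and 32.1 CPM in ICB, 21.4, 1237, 583, 415 and 1239 CPM in 5-FU and 6.65, 5.26, 14.6 and 9.77 CPM in PBS tumors (log2 fold change -4.39 ± 1.10 (SE), adjusted p = 0.0187). Nr4a1, an orphan nuclear receptor, had 10.8, 14.6, 28.0, 24.1 and 17.7 CPM, 16.4, 221, 91.7, 74.2 and 229 CPM and 12.2, 10.1, 16.9 and 14.2 CPM (log2 fold change -2.73 ± 0.57 (SE), adjusted p = 0.00747). 5-FU 1 fell inside the range of the ICB tumors for both genes. Egr1 was the third call (log2 fold change -1.76 ± 0.49 (SE), adjusted p = 0.0326), lost without ICB 1, ICB 2, ICB 3, ICB 5, 5-FU 2 or 5-FU 5 (adjusted p from 0.0646 to 0.107), and Fos (log2 fold change -1.73 ± 0.55 (SE), adjusted p = 0.0560) and Jun (log2 fold change -0.73 ± 0.25 (SE), adjusted p = 0.0747) were not called. Fosb lost its call without ICB 2 (adjusted p = 0.0563). Of 23 genes tested, 3 were thus called higher in 5-FU, against 2.84% of all genes, 21 had negative log2 fold changes and the median was -0.63. Calls higher in 5-FU numbered 7 without 5-FU 1, 1 without ICB 2, 2 to 4 without another tumor, 7 by DESeq2 and 10 with Ptprc as a covariate. Of 12 heat shock genes, 12 had negative log2 fold changes and 2 were called higher in 5-FU, against 2.84% of all genes. Hsph1, a large chaperone of the HSP110 family, had 59.2, 42.6, 69.6, 70.7 and 68.5 CPM in ICB and 101, 171, 107, 129 and 117 CPM in 5-FU tumors (log2 fold change -1.01 ± 0.22 (SE), adjusted p = 0.00961), and the small chaperone Hspb8 had 35.0, 35.8, 49.0, 33.5 and 30.2 CPM against 53.9, 66.3, 69.7, 62.8 and 68.0 CPM (log2 fold change -0.80 ± 0.19 (SE), adjusted p = 0.0138). Both kept their calls without any 1 tumor, while Hspa1a was not called (log2 fold change -1.31 ± 0.79 (SE), adjusted p = 0.313).

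Genes tied to the action of 5-FU itself had calls in both directions. Of 24 genes for the targets and the metabolism of fluoropyrimidines, 3 were called, against 8.57% of all genes, and 16 of the others were bounded, against 51.2%. Tyms, thymidylate synthase, had 43.2, 24.6, 30.9, 53.6 and 39.3 CPM in ICB, 54.7, 66.9, 47.9, 54.4 and 44.7 CPM in 5-FU and 91.9, 134, 65.2 and 66.6 CPM in PBS tumors, with an interval of -0.97 to -0.00. Upp1, uridine phosphorylase, which can activate 5-FU, was higher in ICB, with 64.5, 85.3, 59.9, 97.0 and 98.0 CPM against 18.8, 41.4, 25.4, 13.3 and 22.3 CPM (log2 fold change 1.74 ± 0.34 (SE), adjusted p = 0.00482). Fpgs (-0.73, adjusted p = 0.0418), which retains folates in cells, and Ung (-0.68, adjusted p = 0.0438), which cuts uracil out of DNA, were higher in 5-FU. Upp1 kept its call without any 1 tumor, but Fpgs lost it without ICB 1, ICB 2, ICB 3, ICB 5, 5-FU 1, 5-FU 2 or 5-FU 4 (adjusted p from 0.0618 to 0.113), and Ung without ICB 1, ICB 2, ICB 3, ICB 5, 5-FU 1, 5-FU 2 or 5-FU 4 (adjusted p from 0.0563 to 0.118). Dpyd, which breaks down 5-FU, had 0.0343 to 1.48 CPM in ICB and 0.317 to 1.94 CPM in 5-FU tumors and was not called (interval of -2.70 to 0.69). Of 21 p53 target genes, 2 were higher in 5-FU, Plk2 (-1.04) and Phlda3 (-0.73), against 2.84% of all genes, and 9 of the others were bounded, a smaller share than among all genes. Cdkn1a, the p21 cell cycle inhibitor and the classic p53 target, had 129.5, 166, 116, 161 and 156 CPM in ICB and 127, 167, 109, 126 and 132 CPM in 5-FU tumors, and its interval was -0.16 to 0.44. Mdm2 (-0.24 to 0.46), Bax (-0.32 to 0.40) and Ccng1 (-0.57 to 0.30) were bounded too. Phlda3 lost its call without ICB 2, ICB 3, ICB 5, 5-FU 1, 5-FU 2 or 5-FU 4 (adjusted p from 0.0712 to 0.0897), and 2 targets were higher in ICB without ICB 3. Relative to PBS, Plk2 was lower in ICB, at -1.16 (adjusted p = 0.00272), and differed by -0.12 (adjusted p = 0.749) in 5-FU.

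Of 24 mitotic genes 0 were called by edgeR's quasi-likelihood test. All 24 mitotic genes had negative log2 fold changes, with a median of -0.46, 3 at an unadjusted p under 0.05, 0 called by DESeq2 and by limma-voom, and 9 bounded (51.2% of all genes). Mki67, the gene of the Ki-67 antigen, had 323, 179, 192, 471 and 232 CPM in ICB and 526, 517, 225, 510.4 and 389.9 CPM in 5-FU tumors (log2 fold change -0.63 ± 0.46 (SE), adjusted p = 0.412), and its groups overlapped. Of 24 S phase genes 17 were bounded, against the same share, and 0 called, with 3 at an unadjusted p under 0.05 and 0 called by DESeq2 and by limma-voom, while 1 was called without ICB 4. The model of the 10 tumors alone called 1 mitotic and 1 S phase gene higher in 5-FU. Fen1, a nuclease of lagging strand synthesis, had 48.4, 40.3, 46.4, 56.8 and 56.3 CPM against 45.9, 61.0, 50.6, 44.5 and 45.2 CPM, an interval of -0.25 to 0.26. Of 27 genes of ribosome biogenesis and the RNA exosome, 26 had negative log2 fold changes and 0 were called, with 10 at an unadjusted p under 0.05 (25.6% of all genes), 3 called by DESeq2 and 1 by limma-voom, and 18 bounded (51.2% of all genes). Rrp12 (log2 fold change -0.65 ± 0.20 (SE), adjusted p = 0.0507) and Dkc1 (log2 fold change -0.73 ± 0.24 (SE), adjusted p = 0.0635) came closest. The fit of the ICB and 5-FU tumors alone called 5 of the 27, and leaving out 5-FU 3 or ICB 4 gave 4 and 2 calls.

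The narrowest intervals belonged to genes of several lists. Uqcrc1, Ndufs3, Fen1, Hsp90b1, Pdia4, Atf6, the HIF-1 target and oxygen sensor Egln1, and the ribosome biogenesis factor Utp15 (-0.27 to 0.21) were the 8 list genes with the narrowest. All 29 nuclear genes of the respiratory chain had intervals within -1 to 1, against 51.2% of all genes, 10 of them within -0.5 to 0.5 against 17.3%, and 0 were called by edgeR's quasi-likelihood test, by DESeq2 or by limma-voom, with 3 at an unadjusted p under 0.05. Uqcrc1, a core subunit of complex III, had 161, 160.3, 195, 182 and 187 CPM in ICB and 165, 184, 166, 165 and 154 CPM in 5-FU tumors, an interval of -0.16 to 0.33. Ndufs3 of complex I ran from -0.12 to 0.38. Of 34 cytosolic ribosomal protein genes 33 were bounded and 0 called by any of the 3 tools, with 0 at an unadjusted p under 0.05, and the exception, Rps2, had a log2 fold change of -0.29. Uqcrc1 was lower than in PBS in both treatments, at -0.53 (adjusted p = 0.00293) in ICB and -0.62 (adjusted p = 0.00457) in 5-FU. Of the 13 genes encoded in the mitochondria 0 were bounded, and 0 were called by any of the 3 tools or had an unadjusted p under 0.05.

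Several protein folding genes of the endoplasmic reticulum were bounded. Of 18 genes of the unfolded protein and integrated stress response, 2 were called, against 8.57% of all genes, and 13 of the others were bounded, against 51.2%. Hspa5, the chaperone BiP, had 723, 844, 841, 816 and 860.3 CPM in ICB and 635, 846, 881, 682 and 829 CPM in 5-FU tumors, with an interval of -0.24 to 0.40, and Hsp90b1 ran from -0.33 to 0.16, Pdia4 from -0.29 to 0.20 and Atf6 from -0.09 to 0.44. The 2 called genes lie on the ATF4 and CHOP branch. Trib3, a pseudokinase, had 9.42, 23.7, 4.39, 14.6 and 10.5 CPM in ICB and 3.33, 5.32, 3.95, 3.48 and 1.83 CPM in 5-FU tumors (log2 fold change 1.81 ± 0.40 (SE), adjusted p = 0.00934), and Ddit3, which encodes CHOP, had 15.8, 25.8, 12.8, 19.7 and 12.7 CPM against 8.41, 10.8, 10.5, 9.59 and 10.3 CPM (log2 fold change 0.81 ± 0.20 (SE), adjusted p = 0.0156). Ddit3 lost its call without ICB 2 or 5-FU 1 (adjusted p from 0.0501 to 0.0503). PBS tumors, at 13.1 to 20.0 CPM of Trib3 and 12.1 to 16.7 CPM of Ddit3, were on the side of ICB. Cholesterol synthesis had a like pattern, with 2 of 19 genes called, Mvd (1.07) and Pmvk (0.50), and 13 of the others bounded. Mvd, mevalonate decarboxylase, had 22.7, 24.3, 12.7, 17.5 and 21.2 CPM in ICB, 8.65, 8.99, 9.58, 9.12 and 10.5 CPM in 5-FU and 36.3, 33.9, 33.8 and 27.0 CPM in PBS tumors (log2 fold change 1.07 ± 0.20 (SE), adjusted p = 0.00374). Pmvk lost its call without ICB 1, ICB 2, ICB 4, ICB 5, 5-FU 1, 5-FU 2, 5-FU 4 or 5-FU 5 (adjusted p from 0.0521 to 0.107).

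The cytokine axis of TNF, IL-1 and IL-6 gave no call. Of 23 genes 0 were DEGs by edgeR's quasi-likelihood test, 11 had an unadjusted p under 0.05 (25.6% of all genes), DESeq2 and limma-voom called 3 each, and 10 were bounded (51.2% of all genes). The Ptprc covariate gave 2 calls higher in 5-FU. Leaving out 5-FU 3 gave 3 calls and leaving out ICB 4 gave 1. Tnf had 19.8, 40.1, 13.5, 17.5 and 20.8 CPM in ICB, 4.97, 12.1, 15.7, 4.85 and 20.8 CPM in 5-FU and 1.89, 3.63, 1.48 and 1.67 CPM in PBS tumors (log2 fold change 0.94 ± 0.44 (SE), adjusted p = 0.187). Il1b had 69.1, 203, 52.0, 62.9 and 122 CPM, 25.9, 99.2, 103, 26.9 and 113 CPM and 11.3 to 51.1 CPM (log2 fold change 0.47 ± 0.56 (SE), adjusted p = 0.641). Both genes were mostly above PBS in both treatments, and their values overlapped between them. Il6 (log2 fold change -1.60 ± 0.72 (SE), adjusted p = 0.170) and Il1a (log2 fold change 1.74 ± 0.62 (SE), adjusted p = 0.0840) had opposite signs, both uncalled. Nfkb1, a subunit of NF-κB, was bounded (0.13 to 0.72) although its groups did not overlap. Among 17 endothelial genes the adhesion receptor Sele was the only call by edgeR's quasi-likelihood test, against 8.57% of all genes. It was higher in 5-FU (log2 fold change -1.07 ± 0.27 (SE), adjusted p = 0.0205) but not called without ICB 2, ICB 3 or 5-FU 5 (adjusted p from 0.0508 to 0.0606). DESeq2 and the model of the 10 tumors alone each called 1 endothelial gene higher in ICB and 2 higher in 5-FU. Cdh5, the cadherin of vessel walls, had 34.2, 54.3, 68.7, 41.1 and 58.3 CPM in ICB against 40.5, 41.7, 78.7, 45.8 and 56.1 CPM in 5-FU tumors and an interval of -0.69 to 0.62. Without 5-FU 3, 2 endothelial genes were higher in ICB, and without 5-FU 2, 2 were higher in 5-FU. The lists of skeletal muscle, adipocyte, skin and red blood cell genes had 0 calls by edgeR's quasi-likelihood test among 15, 10, 7 and 5 genes, with 0, 1, 4 and 0 at an unadjusted p under 0.05. DESeq2 called 0 in each of the 4 lists, and limma-voom called 2 red blood cell genes and 0 in the other 3 lists. Without 5-FU 5, 4 red blood cell genes were called, and without ICB 3, 1 adipocyte gene. Pparg, an adipocyte regulator, was the 1 bounded gene of these lists.

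**Figure D5:**
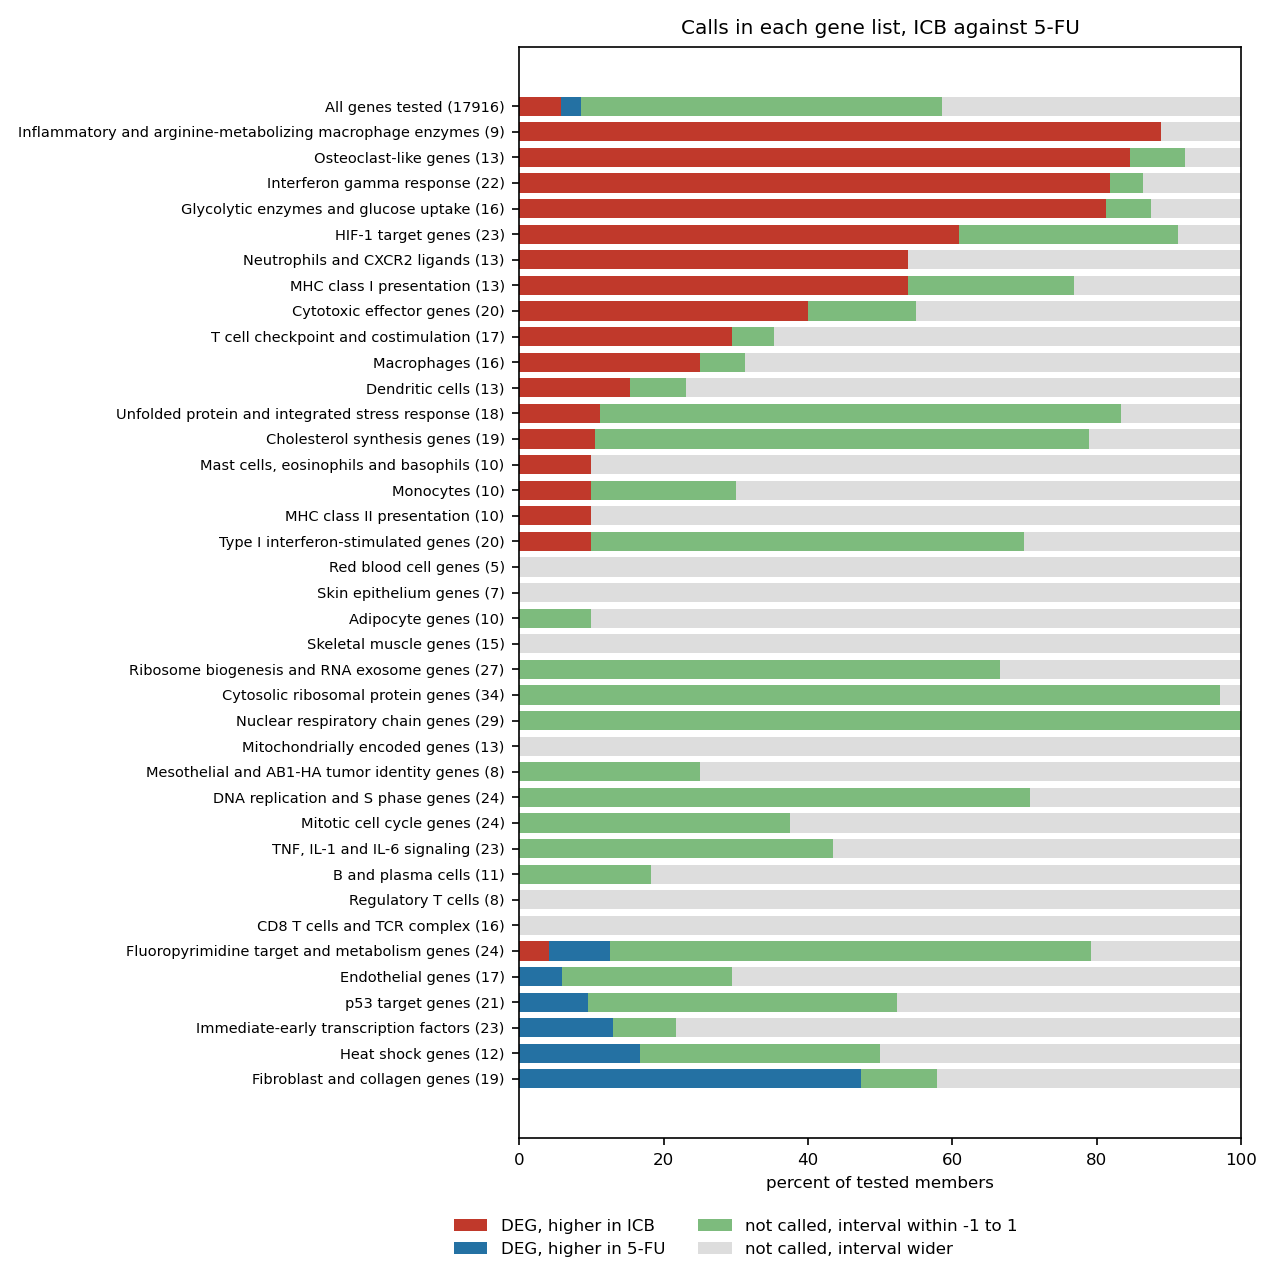
Share of the tested members of each list, with their number in brackets, that were DEGs higher in ICB (red), DEGs higher in 5-FU (blue), not called with an interval within -1 to 1 (green) or not called with a wider interval (grey), and all 17916 genes in the top bar. Red is widest for macrophage enzymes, osteoclast-like genes, IFNγ response and glycolysis, blue is largest for fibroblast and collagen genes, and green fills the bar of the 29 respiratory chain genes.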

How the data were processed

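RNA of whole AB1-HA tumors was sequenced as single-end reads of 100 bases. The submitters' processing notes name bcl2fastq 2.20.0.422 and kallisto 0.46.0. The authors deposited estimated counts per gene, made by pseudoalignment to the mouse transcriptome of GRCm38 and summed with tximport, with no pooling of tumors. The table of the 5-FU experiment was used, and that of the cisplatin experiment was not used here. It lists 55341 genes, of which 19802 had 0 counts in all 19 tumors, and 26 gene names had been turned into dates and were left as they stand. Of the values, 23.4% were not whole and were rounded. Estimated counts split reads between near-identical genes by a model, so values of single granzymes, globins and Ly6c genes are uncertain.

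Groups were taken from the labels. In R 4.3.3, genes were filtered with filterByExpr, libraries were scaled with TMM, and edgeR 4.0.16 fitted a quasi-likelihood model to the 19 tumors of 4 groups (PBS, ICB, 5-FU and the combination), from which ICB minus 5-FU was tested with Benjamini-Hochberg adjustment. DEGs had an adjusted p under 0.05 and a log2 fold change beyond 0.5 in either direction. A gene was bounded when its 95% interval, not adjusted for the number of genes, lay within -1 to 1. Gene list scores are mean log2 CPM with a prior count of 2. The study's methods name DESeq2, which was run as an alternative (version 1.42.0), as were limma-voom (limma 3.58.1), other filters and scalings, a replicate block, a model of the 10 tumors alone and leaving out each tumor.

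Named genes are, in each direction, the 8 DEGs of largest absolute change among those averaging 50 counts or more whose groups did not overlap, the 2 members of each list with the smallest p, the 8 list genes with the narrowest intervals and a fixed set of markers, with further list members as examples, and a few of these genes are not reported here. The members compared, the 39 lists and the markers were chosen with earlier results of these data known, so list counts are descriptions, and members chosen as examples were partly chosen after their values were seen. The scripts were tested on simulated counts, with 200 of 17916 genes changed in this comparison: 40.5% were recovered at a log2 fold change of 1 and 90% at 2, false calls were 2.41% and 4.26% of calls, and 0 calls were made with no change. The changed genes were drawn only from those averaging 50 counts or more, and counts were drawn independently for each gene, so recovery over all genes tested was not measured. Depth was 23541733 to 33950805 counts per tumor. Some named genes had few counts in 1 group, such as 0 to 13 for Gzmg and 4 to 17 for Chil3 in 5-FU tumors. Promoters and their coordinates are from RefSeq for GRCm38.p6, and gene coordinates from GENCODE M21 on GRCm38.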

Additional observations from a re-analysis of the deposited data

Results flagged for a closer look

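In each group of 5 tumors the highest and the lowest value of every named gene and list score was compared with its nearest neighbour, and a value was singled out when that gap exceeded Dixon's 95% critical value as a share of the range. Chance gives about 1 in 20 groups, and 30 of 516 were singled out, a share close to that. List scores and their member genes are also not independent, so the values below are descriptions of single tumors and no more. The tumors most often involved were 5-FU 2 with 9 values and ICB 2 with 8. All values are log2 CPM.

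5-FU 2 was low in muscle and fat. It had -0.50 for the skeletal muscle score, where the other 5-FU tumors had 5.87 to 6.74, and 1.50 for the adipocyte score, where they had 4.41 to 5.53. Among single genes its values were 0.63 for Ttn, -1.37 for Mb, 4.76 for Pfkm and 0.46 for Plin1. It was also lowest in Dio2 at 1.06 and highest in Ero1l at 6.30. In Mcpt8 it was lowest at -3.86, against -2.67 to -2.43 in the others, all of them at or near the floor. 5-FU 3 was highest in Trem2 at 6.31, in mt-Cytb at 12.92 and in the mean of the mitochondrially encoded genes at 11.35, against 9.71 to 10.12 in the others. 5-FU 1 was lowest in Fosb at 4.42, against 8.70 to 10.28, and 5-FU 4 was lowest in Ido1 at -1.87.

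ICB 2 was the highest ICB tumor in S100a9 at 3.90, Gbp5 at 8.64, Nfkb1 at 8.17, Ier3 at 5.69, Il6 at 1.56, Ndrg1 at 8.18, Krt10 at 3.39 and the HIF-1 target score at 5.83, against 5.32 to 5.45 in the others. ICB 3 was highest in Hba-a1 at 6.40, Eln at 5.91, Igf2 at 2.50 and the red blood cell score at 4.69. ICB 4 was lowest in Ciita at 6.51 and in Klrb1c at 1.50, and highest in Hsp90b1 at 9.97. ICB 1 was lowest in the glycolysis score at 8.27, against 8.52 to 8.62 in the others, and still above every 5-FU tumor.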

How the results depend on the processing

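The 1535 DEGs became 2311 by DESeq2, which was run on 35539 genes without filterByExpr, and 2316 in the model of the 10 tumors alone, with 863 and 995 higher in 5-FU, and without a filter 328 were higher in 5-FU. Leaving out 1 tumor gave 726 to 2263 DEGs, 506 to 1667 higher in ICB and 220 to 596 higher in 5-FU, and 8336 to 9034 bounded genes. Within -0.5 to 0.5, 3094 genes were bounded. With Ptprc as a covariate, chosen after seeing the data, 586 DEGs were higher in ICB and 752 in 5-FU, and the log2 fold change of Cd4 became -1.40 from 0.02. The cause of these shifts was not tested. limma-voom gave 1772 DEGs, size factors 1476 and a minimum of 10 counts 1437. Of the values for named genes under the alternatives, 3569 kept their call, 210 lost it, 91 gained one, 49 moved and 1 reversed, and of those for gene list scores 467 stayed within 1 SD and 38 moved. Called class I genes were 4 with size factors and 3 without a filter, and called collagen genes 5 without a filter. Called cytotoxic genes were 4 with the minimum of 10 counts in every tumor, which removes genes below that count in any tumor.

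The replicate numbers of the ICB and 5-FU tumors did not pair them: deviations of same-numbered tumors had correlations of 0.23, -0.42, 0.51, 0.29 and -0.02. With the number as a replicate block 1403 genes were DEGs, 983 higher in ICB and 420 in 5-FU, 1276 shared with the 1535, and 9243 were bounded. Depth limits little here, since 3 counts are at most 0.133 CPM, but 41.4% of the genes were neither called nor bounded, and the simulation recovered 40.5% of 2-fold changes.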

Other observations

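The groups below were assembled after the values were seen, so their counts are descriptions with no test, and they stand beside the 5.73% of all genes that were DEGs higher in ICB and the 2.84% higher in 5-FU. Wdr91, a regulator of endosome maturation at chr6:34880426-34910876, had the smallest adjusted p of all genes, with 36.2, 42.8, 48.8, 41.3 and 44.6 CPM in ICB and 18.2, 16.8, 16.5, 17.0 and 17.7 CPM in 5-FU tumors (log2 fold change 1.31 ± 0.12 (SE), adjusted p = 2.70e-05, edgeR's quasi-likelihood test). Of 20 subunits of the V-ATPase, the proton pump that acidifies lysosomes and the resorption pit of osteoclasts, 10 were DEGs higher in ICB and 0 were lower, with a median log2 fold change of 0.58, and of 33 lysosomal hydrolases and membrane proteins 16 were higher and 0 lower, with a median of 0.93. Atp6v0d2 among the V-ATPase calls and Ctsk among the lysosomal calls are also in the osteoclast list. Clcn7, the lysosomal chloride transporter, had 119, 174, 164, 162 and 188 CPM in ICB and 44.5, 48.3, 76.6, 47.0 and 52.6 CPM in 5-FU tumors (log2 fold change 1.59 ± 0.19 (SE), adjusted p = 0.000157). Snx10 (1.38), Gpr137b (1.06) and Mfsd12 (1.20) are further genes of this system. The mean log2 CPM of the V-ATPase genes was 6.52 to 6.92 in ICB, 5.74 to 6.32 in 5-FU and 6.23 to 6.81 in PBS tumors, so that PBS overlapped both groups. The lysosomal list had 7.97 to 8.81 in ICB, 7.08 to 8.23 in 5-FU and 7.13 to 7.50 in PBS tumors, so that ICB and 5-FU overlapped and PBS lay below every ICB tumor.

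Of 9 lactate and pH transporters and carbonic anhydrases, 5 were higher in ICB and 0 lower, among them Car9, which is also a HIF-1 target, and 3 had negative log2 fold changes. Slc16a3, the lactate exporter MCT4, had 70.6, 159.7, 93.3, 74.4 and 114 CPM in ICB and 16.3, 15.0, 21.8, 11.6 and 21.4 CPM in 5-FU tumors (log2 fold change 2.57 ± 0.34 (SE), adjusted p = 0.000339), and Car2, carbonic anhydrase 2, had 21.0, 23.5, 22.8, 24.4 and 27.2 CPM against 5.69, 8.96, 9.31, 5.73 and 9.23 CPM (log2 fold change 1.61 ± 0.19 (SE), adjusted p = 0.000157). On the 5-FU side, 5 of 18 elastic fiber genes were higher in 5-FU and 0 in ICB, with a median of -0.67. Eln, elastin, had 28.0, 24.2, 60.1, 31.5 and 30.0 CPM in ICB and 109, 109.7, 154, 135 and 113 CPM in 5-FU tumors (log2 fold change -1.84 ± 0.27 (SE), adjusted p = 0.000736), and Mfap4, a microfibril protein, had 72.5, 38.9, 59.5, 30.4 and 37.8 CPM against 195, 147, 223, 274 and 162 CPM (log2 fold change -2.07 ± 0.35 (SE), adjusted p = 0.00199). Of 17 tested genes of motile cilia, 6 were higher in 5-FU and 1 in ICB, all at low levels, with scores of 0.59 to 0.82 in 5-FU and 0.14 to 0.44 in ICB tumors. Their source among the cells of the tumor was not tested.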
